A study of Mus musculus with 20 samples.

Results

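The genes described here are 37 mouse genes of sterol and fatty acid synthesis, with the SREBP proteins that switch those genes on and the LXR receptors that sense sterols. They were chosen by name, as a set whose drug response had been seen to differ in direction between melanoma and T cells, and all 37 were found among the 46603 gene identifiers counted. RNA was sequenced from B16F10 cells, a mouse melanoma line, and from OT-I/Cas9 CD8 T cells, which carry a transgenic receptor for an ovalbumin peptide and the Cas9 nuclease. The melanoma groups were Ccdc101 KO cells with thapsigargin (TG), Ccdc101 KO cells with vehicle, control cells with TG and control cells with vehicle. The T cell groups were control cells activated and given TG, Atp2a2 KO cells activated and given vehicle, control cells activated and given vehicle, resting control cells with TG, Atp2a2 KO cells labelled resting with vehicle, and resting control cells with vehicle. TG blocks the SERCA calcium pumps of the endoplasmic reticulum, among them the product of Atp2a2, and was given at 50 ng/mL for 8 hours against DMSO as vehicle. Activation was 24 hours on plate-bound anti-CD3 at 2.5 µg/mL. All T cells had been cultured in IL-2, IL-7 and IL-15, so resting means without anti-CD3 and not freshly isolated. Neither the labels nor the titles say that the knockout cells were clones or that the 2 libraries of each of the 10 groups were separate cultures, so p-values cover the spread between these libraries, which may be technical. Depth ran between 9985311 and 17462770 counts per library, and the 37 genes took between 0.342% and 0.939% of them.

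Cells make cholesterol from acetyl-CoA through mevalonate, farnesyl diphosphate, squalene and lanosterol, and make fatty acids from the same acetyl-CoA. When sterol in the endoplasmic reticulum membrane is low, SCAP carries the precursor of SREBP to the Golgi, where it is cut and freed to enter the nucleus and switch on both routes. When sterol is plentiful, INSIG proteins hold SCAP in the reticulum, and oxidised sterols activate the LXR receptors, which raise cholesterol export. CD8 T cells are known to raise sterol and fatty acid synthesis when they start to divide, and thapsigargin is a standard trigger of the unfolded protein response in the same membrane.

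The promoters of 4 members are shown as examples of different responses to TG. Hmgcs1 and Mvd of the mevalonate route and the feedback gene Insig1 were called higher in melanoma and lower in T cells, and the exporter gene Abca1 was higher in both. Each line is the 250 bases before the annotated start, 5′ to 3′ on the gene's strand, from RefSeq on GRCm38.p6. Capitals mark matches, on either strand, to the sterol response element TCACNCCAC, the NF-Y box CCAAT or the E-box CACGTG.
Hmgcs1 (chr13:119690101-119690350, plus strand): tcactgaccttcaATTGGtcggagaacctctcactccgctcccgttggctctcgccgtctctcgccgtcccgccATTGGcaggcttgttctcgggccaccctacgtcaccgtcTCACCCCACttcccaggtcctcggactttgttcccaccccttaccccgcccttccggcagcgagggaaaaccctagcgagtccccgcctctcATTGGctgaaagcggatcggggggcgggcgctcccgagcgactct
Mvd (chr8:122443423-122443672, minus strand): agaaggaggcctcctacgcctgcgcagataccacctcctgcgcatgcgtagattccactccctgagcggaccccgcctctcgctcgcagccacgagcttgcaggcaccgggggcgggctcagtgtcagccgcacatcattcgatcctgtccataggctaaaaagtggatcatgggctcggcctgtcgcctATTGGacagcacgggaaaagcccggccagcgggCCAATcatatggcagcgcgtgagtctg
Insig1 (chr5:28071162-28071411, plus strand): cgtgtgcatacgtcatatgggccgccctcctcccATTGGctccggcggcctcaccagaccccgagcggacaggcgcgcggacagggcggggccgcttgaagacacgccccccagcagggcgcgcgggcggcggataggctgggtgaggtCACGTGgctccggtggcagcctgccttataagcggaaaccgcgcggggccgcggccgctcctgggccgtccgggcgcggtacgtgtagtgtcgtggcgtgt
Abca1 (chr4:53159896-53160145, minus strand): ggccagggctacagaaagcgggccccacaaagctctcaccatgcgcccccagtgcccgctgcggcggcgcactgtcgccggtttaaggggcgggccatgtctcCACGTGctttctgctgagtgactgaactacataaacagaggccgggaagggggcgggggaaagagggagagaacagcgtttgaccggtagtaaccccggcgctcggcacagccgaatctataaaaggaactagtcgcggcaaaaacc
The Hmgcs1 window held the sterol response element letters, starting at -137, between NF-Y boxes on the minus strand. Mvd had a pair of NF-Y boxes, Insig1 had an NF-Y box and an E-box, and Abca1 had an E-box with no NF-Y box.

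Windows covering 250 bases before to 50 after the start were at hand for 29 of the 37 members, 38 windows in all because some genes have several starts. The NF-Y box was in 22 of the 38 windows (57.9%), against 37.4% of all 32851 windows. By gene, it was in 9 of 9 squalene-to-cholesterol genes, 5 of 6 mevalonate genes and 4 of 5 SREBP regulators. It was in 2 of 5 fatty acid genes and 1 of 4 LXR genes. A gene counted here if any of its windows matched, so the share of all windows is no background for these counts. The E-box was in 7 windows (18.4%), against 7.15% of all windows. These belong to 6 genes, since a pair of overlapping Scap windows holds the same E-box. The sterol response element was in 1 window (2.63%), that of Hmgcs1, against 1.24% of all. Neither the ER stress element (CCAAT, 9 free bases, then CCACG, so that it begins with an NF-Y box) nor the LXR repeat (AGGTCA again after 4 free bases) was in any of the 38, against 0.119% and 0.0152% of all windows. Such short matches describe the letters of these windows and say nothing of binding.

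**Figure D1:**
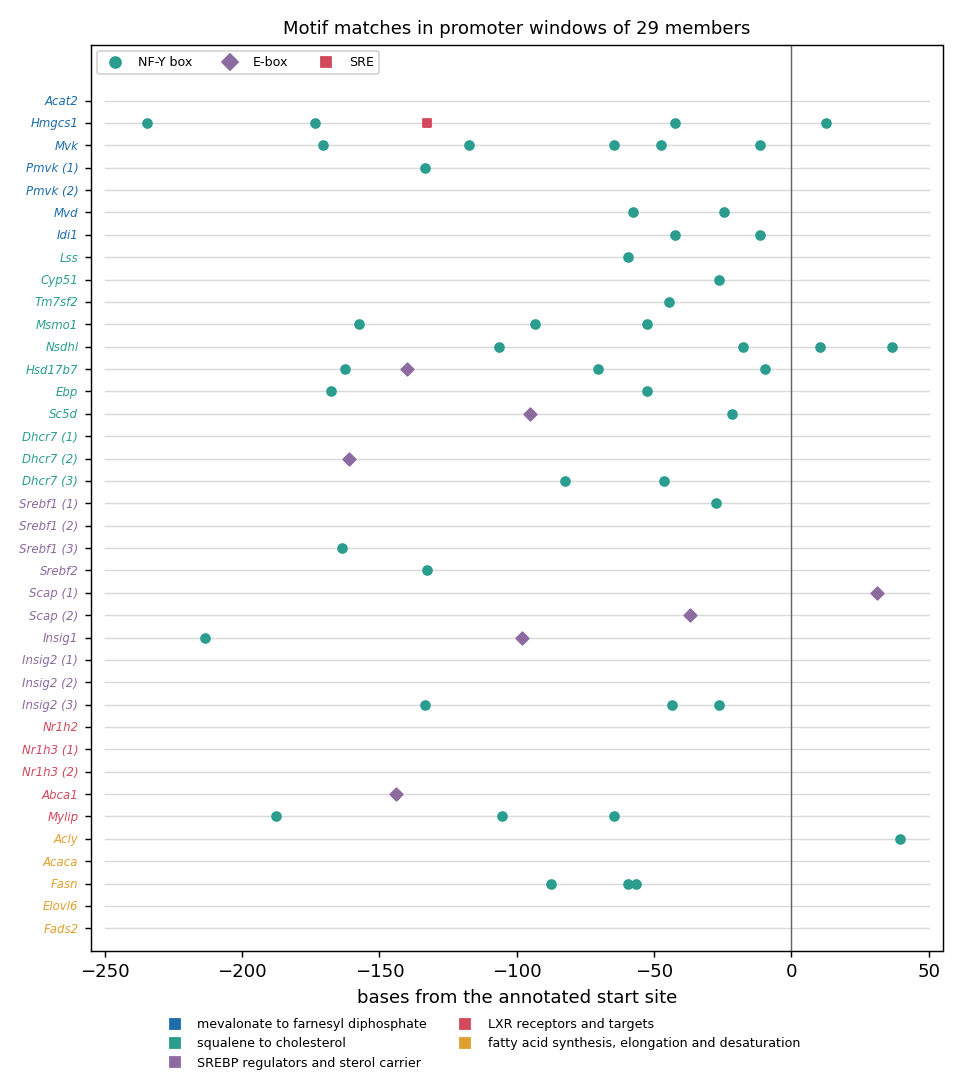
Matches to 3 motifs in the promoter windows of 29 members, one row per window (numbers in brackets tell the several starts of a gene apart), with bases from the annotated start on the horizontal axis; row labels are coloured by role. NF-Y boxes lie in 22 of the 38 windows and are present for every squalene-to-cholesterol gene with a window.

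The targeted genes and cell markers were checked first. Sgf29, the current name of Ccdc101, had 19.6 and 18.7 CPM (counts per 1e6 counts, after TMM scaling) in Ccdc101 KO melanoma with vehicle, against 29.6 and 28.2 CPM in control melanoma with vehicle, and Atp2a2 had 434 and 436 CPM in activated Atp2a2 KO T cells, against 664 and 687 CPM in activated control T cells. Both were lower in the knockout libraries and far from absent. Hspa5, the reticulum chaperone that marks the unfolded protein response, rose with TG 10.1-fold in control melanoma, 2.84-fold in resting T cells and 2.12-fold in activated T cells. Sums over marker genes, here and below, are CPM without TMM scaling. Melanoma markers summed to between 10300 and 16400 CPM in melanoma and to at most 6.43 CPM in T cells. T cell markers summed to between 1800 and 4610 CPM in control T cells and to at most 7 CPM in melanoma. The 2 libraries labelled resting Atp2a2 KO carried an activated profile: their T cell activation markers summed to 25600 and 25800 CPM, beside 25500 and 26200 CPM in activated Atp2a2 KO cells and 13000 and 13400 CPM in resting control cells. No member was called between the 2 Atp2a2 KO groups by edgeR (0.588% of 13432 genes were), none by DESeq2, and 4 had an unadjusted p below 0.05. Leaving those libraries out of the fits changed no member's call in any of the other T cell comparisons or in those that cross cell kinds.

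In control melanoma, TG raised most steps of the sterol route and lowered most of the fatty acid genes. Of 36 members tested, 18 were higher and 14 lower with TG, against 35.7% and 36.1% of the 12540 genes tested, at a Benjamini-Hochberg adjusted p below 0.05 in edgeR's quasi-likelihood test. The share higher is above that background and the share lower is close to it, so the roles rather than the totals carry the description. Among the 18 sterol enzymes, 11 were higher and 4 lower (median log2 change 0.43). Among the 8 fatty acid genes, 1 was higher and 7 lower (median -0.58), while the median over all genes tested was -0.00082. In bulk RNA, fewer cells of a type and less RNA per cell cannot be told apart. The 5 genes used as T cell activation markers, among them Myc, Tfrc and the proliferation gene Mki67, summed to between 829 and 856 CPM in control melanoma with TG and between 1720 and 1860 CPM with vehicle. Melanoma markers summed to 13200 CPM with TG and to between 16000 and 16400 CPM with vehicle, and the part of either shift was not tested.

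Mvd, the decarboxylase that makes isopentenyl diphosphate, had the largest rise among the sterol enzymes. It had 75.1 and 69.6 CPM in control melanoma with TG, against 18.8 and 18.9 CPM with vehicle (log2 change 1.94, SE 0.071, edgeR with Benjamini-Hochberg adjusted p = 3.91e-26). Fdps, which joins these units into farnesyl diphosphate, had 65.8 and 62.9 CPM with TG, against 34.7 and 38.5 CPM with vehicle (log2 change 0.82, SE 0.066, edgeR with Benjamini-Hochberg adjusted p = 1.16e-14). In both genes the TG libraries lay well above both vehicle libraries. Hmgcs1, the synthase at the head of the route, rose little, with 96.9 and 99.5 CPM with TG against 85.7 and 82.6 CPM with vehicle (log2 change 0.22, SE 0.05, edgeR with Benjamini-Hochberg adjusted p = 1.46e-04). Acat2, the thiolase that feeds it, went the other way, with 16.02 and 13.5 CPM with TG against 51.7 and 47.4 CPM with vehicle (log2 change -1.75, SE 0.088, edgeR with Benjamini-Hochberg adjusted p = 2.37e-21). So the first enzymes of one route were called in opposite directions, each without overlap between groups. Pmvk, the phosphomevalonate kinase, rose (0.65 on the log2 scale), while the kinase Mvk (-0.18) and the isomerase Idi1 (-0.20) did not pass the test, and the libraries of Idi1 overlapped (3.20 and 3.71 CPM with TG and 3.53 and 4.51 CPM with vehicle).

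After squalene the rises were more alike. Sqle, the squalene epoxidase and a rate-limiting step, had 207 and 192 CPM in control melanoma with TG, against 111 and 120.2 CPM with vehicle (log2 change 0.79, SE 0.047, edgeR with Benjamini-Hochberg adjusted p = 5.54e-18). Msmo1, a methylsterol oxidase, had 158 and 149 CPM with TG, against 69.1 and 70.7 CPM with vehicle (log2 change 1.14, SE 0.051, edgeR with Benjamini-Hochberg adjusted p = 2.90e-23). Lanosterol synthase Lss rose by a log2 change of 0.83, squalene synthase Fdft1 by 0.69, the desaturase Sc5d by 0.49 and the demethylase Cyp51 by 0.40. Fdft1 shares 18.3% of its exon bases with Ctsb on the other strand, and Fdps shares 26.7% of its own with Gm43738 on the same strand. Reads of the shared bases may have been dropped or given to either gene, since the counting settings are not known. Dhcr7, the last reductase before cholesterol, fell, with 42.9 and 52.2 CPM with TG against 127 and 127 CPM with vehicle (log2 change -1.42, SE 0.06, edgeR with Benjamini-Hochberg adjusted p = 1.21e-21). The dehydrogenase Nsdhl (-0.37) and the reductase Hsd17b7 (-0.30) fell slightly, the isomerase Ebp rose slightly (0.17), and the reductase Tm7sf2 (0.46) did not pass. The calls of Ebp and Hsd17b7 were lost in DESeq2 (adjusted p = 0.11 and 0.077) and on leaving out the first control TG library (edgeR with Benjamini-Hochberg adjusted p = 0.59 and 0.092).

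**Figure D2:**
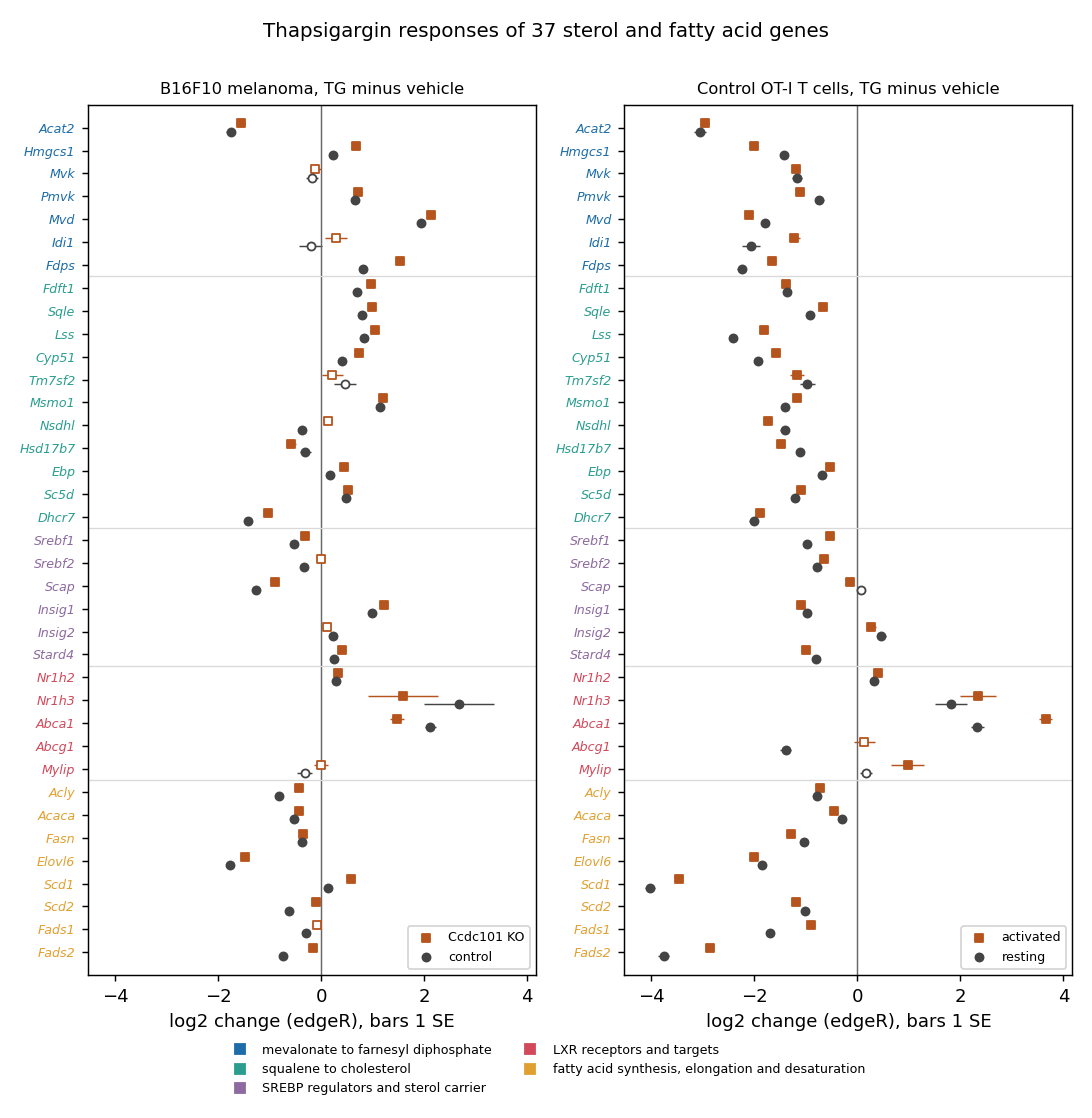
Log2 change with TG of the 37 members (edgeR; bars are 1 SE, filled symbols passed an adjusted p of 0.05), melanoma on the left and control T cells on the right, with members in route order and coloured by role. In melanoma the sterol enzymes lie mostly right of 0 and the fatty acid genes mostly left, while in T cells all of both groups lie left of 0; Abcg1 was not tested in melanoma.

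The regulators split. Insig1, a brake on SREBP that is itself an SREBP target, had 128 and 141 CPM in control melanoma with TG, against 64.01 and 72.3 CPM with vehicle (log2 change 0.99, SE 0.055, edgeR with Benjamini-Hochberg adjusted p = 5.12e-18). Insig2, its less sterol-dependent relative, had 58.6 and 56.9 CPM with TG, against 46.9 and 51.5 CPM with vehicle (log2 change 0.24, SE 0.064, edgeR with Benjamini-Hochberg adjusted p = 0.00104). Scap, the escort of SREBP, had 67.1 and 69.3 CPM with TG, against 166 and 159 CPM with vehicle (log2 change -1.26, SE 0.05, edgeR with Benjamini-Hochberg adjusted p = 4.99e-25). Both TG libraries lay above both vehicle libraries for Insig1 and below them for Scap. Scap shares 13.2% of its exon bases with 5830462I19Rik on the other strand. The transcripts of the factors themselves fell: Srebf2, which serves the sterol genes, had 239 and 258 CPM with TG against 314 and 309 CPM with vehicle (-0.33 on the log2 scale). Srebf1, which serves the fatty acid genes, had 109 and 109 CPM with TG against 159 and 155 CPM with vehicle (-0.53). Stard4, a cytosolic sterol carrier, rose little, with 36.7 and 38.1 CPM with TG against 31.2 and 31.8 CPM with vehicle (0.25).

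Abca1, the pump that loads cholesterol onto lipoproteins outside the cell, had the highest rise of any member above 5 CPM in control melanoma. It had 32.04 and 35.3 CPM with TG, against 7.67 and 7.89 CPM with vehicle (log2 change 2.11, SE 0.11, edgeR with Benjamini-Hochberg adjusted p = 2.28e-21). Nr1h2, the widely expressed LXR beta, had 76.2 and 75.8 CPM with TG, against 61.9 and 61.9 CPM with vehicle (0.30 on the log2 scale). Nr1h3, LXR alpha, was near the detection limit, with 0.874 and 0.951 CPM with TG against 0.122 and 0.150 CPM with vehicle, so its log2 change of 2.67 has an SE of 0.67. The exporter Abcg1 was not tested in melanoma, where it had 1 count over both control TG libraries and 0 over the vehicle ones. Mylip, which marks lipoprotein receptors for breakdown, had 7.96 and 7.13 CPM with TG against 9.25 and 9.62 CPM with vehicle and did not pass (-0.32).

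Among the fatty acid genes of control melanoma, Elovl6, which lengthens palmitate, fell the most. It had 43.8 and 41.7 CPM with TG, against 144 and 149 CPM with vehicle (log2 change -1.78, SE 0.054, edgeR with Benjamini-Hochberg adjusted p = 5.12e-29). Acly, which makes cytosolic acetyl-CoA from citrate, had 329 and 334 CPM with TG, against 589.6 and 571 CPM with vehicle (log2 change -0.81, SE 0.033, edgeR with Benjamini-Hochberg adjusted p = 1.84e-24). Acaca and Fasn, the carboxylase and the synthase that build palmitate, fell less (-0.53 and -0.37 on the log2 scale), with 819 and 856 CPM of Fasn with TG against 1129.9 and 1028 CPM with vehicle. The desaturases differed: Scd2 had 1778 and 1798 CPM with TG, against 2766 and 2741 CPM with vehicle (log2 change -0.62, SE 0.024, edgeR with Benjamini-Hochberg adjusted p = 3.26e-25). Fads2 had 90.97 and 94.2 CPM with TG, against 153 and 157 CPM with vehicle (log2 change -0.74, SE 0.046, edgeR with Benjamini-Hochberg adjusted p = 1.93e-18). Scd1 had 278 and 276 CPM with TG, against 254 and 251 CPM with vehicle (0.14 on the log2 scale), the only rise in the group, and that call was lost without the filter on low counts (edgeR with Benjamini-Hochberg adjusted p = 0.0741). Scd1 and Scd2 are close paralogs, so reads may be divided between them in a way the counts do not show.

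**Figure D3:**
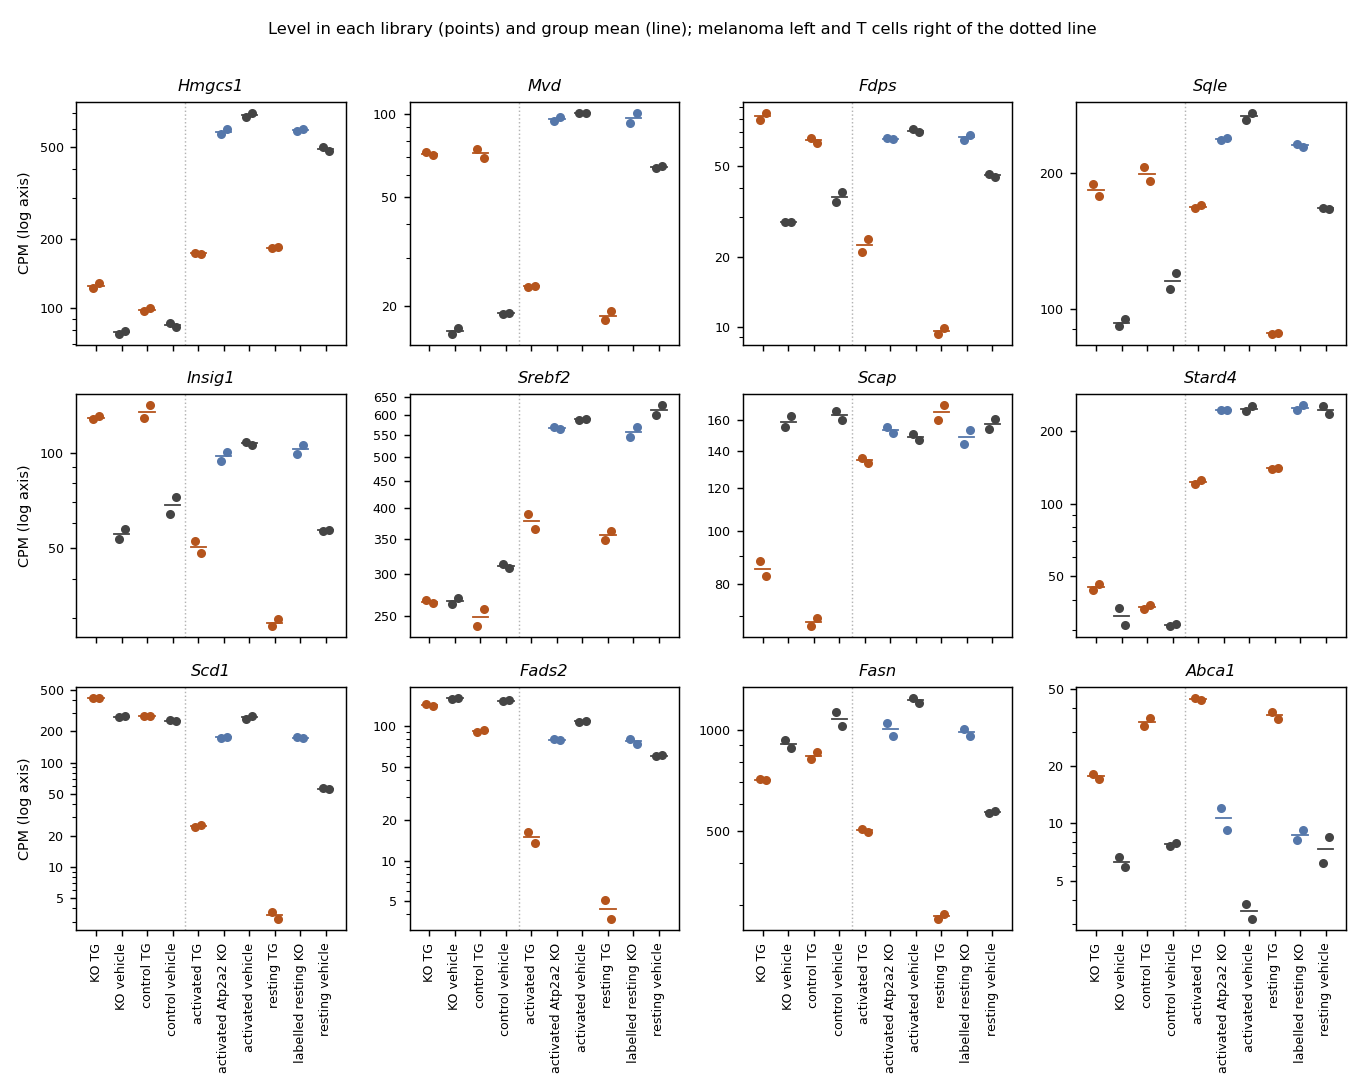
CPM of 12 members in each of the 20 libraries on log axes (points are libraries, lines group means; orange TG, blue Atp2a2 KO, black vehicle), with melanoma left and T cells right of the dotted line. With TG, Mvd, Fdps, Sqle and Insig1 are high in melanoma and low in T cells, Scap is low in melanoma, and Abca1 is high in both cell kinds. Levels were scaled separately in melanoma and in T cells.

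Melanoma cells with Ccdc101 targeted, the gene of a subunit of the SAGA and ATAC acetyltransferase complexes, gave the same directions with TG for members called in both genotypes. In them 17 of 36 members were higher and 11 lower, against 34.1% and 36.3% of genes, and those 17 and 11 were also called higher and lower in control melanoma, with no member called in opposite directions. Insig2, Nsdhl, Srebf2 and Fads1 were called in control cells and not in KO cells. Fdps had 79.2 and 84.96 CPM in KO cells with TG, against 28.6 and 28.5 CPM in KO cells with vehicle (log2 change 1.53, SE 0.067, edgeR with Benjamini-Hochberg adjusted p = 2.08e-23). Mvd had 72.8 and 70.9 CPM in KO cells with TG, against 15.9 and 16.6 CPM in KO cells with vehicle (log2 change 2.14, SE 0.076, edgeR with Benjamini-Hochberg adjusted p = 9.08e-27). Hmgcs1, which rose little in control cells, had 122 and 128 CPM in KO cells with TG, against 77.5 and 79.8 CPM in KO cells with vehicle (log2 change 0.67, SE 0.049, edgeR with Benjamini-Hochberg adjusted p = 7.77e-16). The call of Nr1h3 in KO cells (1.60) was lost on leaving out any 1 of the 4 KO libraries (edgeR with Benjamini-Hochberg adjusted p between 0.053 and 0.21).

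The difference between the 2 genotypes' TG effects was tested as an interaction. It was positive for 16 members and negative for 1, against 7.16% and 5.95% of genes, and 7 of the 18 sterol enzymes and 6 of the 8 fatty acid genes were among the positive ones. Fdps had the largest positive difference (0.71 on the log2 scale, SE 0.096). Scd1 had 416 and 412 CPM in KO cells with TG and 271 and 281 CPM in KO cells with vehicle, beside 278 and 276 CPM in control cells with TG and 254 and 251 CPM in control cells with vehicle (difference 0.45, SE 0.05). Fads2 had 147 and 142 CPM in KO cells with TG and 160.1 and 162 CPM in KO cells with vehicle, and so fell less in KO than in control cells (difference 0.58, SE 0.063). Scd2 also fell less in KO cells, with 2403 and 2394 CPM in KO cells with TG and 2564 and 2600.0 CPM in KO cells with vehicle (difference 0.52, SE 0.034), and Nsdhl had a difference of 0.51 (SE 0.12). The 1 negative difference was that of Abca1 (-0.64, SE 0.18), which had 18.1 and 17.1 CPM in KO cells with TG and 6.64 and 5.96 CPM in KO cells with vehicle. DESeq2 called 10 positive differences and gave no adjusted p for Nsdhl or Abca1. The negative one was lost on leaving out 1 of 3 single libraries (the first control vehicle, the second control TG or the first KO vehicle library).

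With TG in both genotypes, 14 of 36 members were higher and 3 lower in KO melanoma than in control melanoma, against 16.6% and 15% of genes. Fads2 (log2 change 0.64, SE 0.047, edgeR with Benjamini-Hochberg adjusted p = 1.60e-14) and Scd1 (0.58) were the highest, and Abca1 was the lowest (log2 change -0.94, SE 0.094, edgeR with Benjamini-Hochberg adjusted p = 1.20e-10). With vehicle, 3 members were higher and 12 lower in KO than in control melanoma, against 12.4% and 13.3% of genes. The lower ones included Fdps (-0.35), Acly (-0.31), Sqle (-0.31), Cyp51 (-0.30) and Insig1 (-0.30), all falls of under 1 on the log2 scale. Hsd17b7, with 27.4 and 27.5 CPM in KO cells against 18.01 and 19.4 CPM in control cells, was the clearest rise (log2 change 0.56, SE 0.088, edgeR with Benjamini-Hochberg adjusted p = 3.58e-06), and the other rises, Srebf1 and Scd1, were lost in DESeq2 and without the second library of either group.

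In resting control T cells TG lowered the whole sterol route. Of 37 members, 31 were lower and 4 higher, against 35.2% and 34.1% of the 13432 genes tested. All 18 sterol enzymes and all 8 fatty acid genes were lower, with a median log2 change of -1.41 for the enzymes and -1.37 for the fatty acid genes, while the median over all genes was 0.0064. The 37 genes together took 0.342% and 0.343% of counts with TG, against 0.633% in both vehicle libraries. Activation markers fell too, to sums of 3800 and 3840 CPM with TG against 13000 and 13400 CPM with vehicle, while T cell markers summed to 4450 and 4610 CPM with TG against 3020 and 3040 CPM with vehicle. The part of these shifts in the members' falls was not tested.

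Hmgcs1 had 181 and 184 CPM in resting T cells with TG, against 499.7 and 481 CPM with vehicle (log2 change -1.43, SE 0.038, edgeR with Benjamini-Hochberg adjusted p = 2.99e-38). Mvd had 17.8 and 19.2 CPM with TG, against 63.7 and 64.7 CPM with vehicle (log2 change -1.80, SE 0.074, edgeR with Benjamini-Hochberg adjusted p = 2.99e-29). Fdps had 9.33 and 9.81 CPM with TG, against 46.1 and 44.6 CPM with vehicle (log2 change -2.25, SE 0.093, edgeR with Benjamini-Hochberg adjusted p = 4.70e-29). In all 3 genes both TG libraries lay far below both vehicle libraries. Idi1 had 2.26 and 4.05 CPM with TG, against 11.98 and 14.04 CPM with vehicle (-2.06 on the log2 scale). Acat2 fell furthest among the sterol enzymes, with 4.36 and 4.82 CPM with TG against 39.3 and 36.9 CPM with vehicle (log2 change -3.06, SE 0.11, edgeR with Benjamini-Hochberg adjusted p = 2.20e-31). Lss had 31.4 and 26.4 CPM with TG, against 158 and 153 CPM with vehicle (log2 change -2.42, SE 0.058, edgeR with Benjamini-Hochberg adjusted p = 1.42e-40). The smallest fall of an enzyme was that of Ebp (-0.69), followed by Pmvk (-0.74) and Sqle, which had 88.1 and 88.2 CPM with TG against 168 and 167 CPM with vehicle (-0.92).

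Scd1 and Fads2, desaturases for monounsaturated and polyunsaturated fatty acids, fell further than any sterol enzyme. Scd1 had 3.69 and 3.18 CPM in resting T cells with TG, against 57.1 and 55.4 CPM with vehicle (log2 change -4.02, SE 0.10, edgeR with Benjamini-Hochberg adjusted p = 7.96e-39). Fads2 had 5.11 and 3.70 CPM with TG, against 59.7 and 61.04 CPM with vehicle (log2 change -3.76, SE 0.11, edgeR with Benjamini-Hochberg adjusted p = 8.69e-37). Both were left with a small share of their vehicle level in each library. Fads1, the partner desaturase of Fads2, had 23.2 and 23.8 CPM with TG, against 76.5 and 76.3 CPM with vehicle (-1.70 on the log2 scale). Scd2 had 898 and 909.6 CPM with TG, against 1838 and 1807 CPM with vehicle (-1.01), and Fasn had 274 and 283 CPM with TG, against 564 and 575 CPM with vehicle (-1.03). Acaca changed the least in the group (-0.29).

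Insig1, which rose in melanoma, had 28.3 and 29.8 CPM in resting T cells with TG, against 56.7 and 56.98 CPM with vehicle (log2 change -0.97, SE 0.07, edgeR with Benjamini-Hochberg adjusted p = 1.51e-18). Srebf2 had 348 and 363 CPM with TG, against 601 and 626 CPM with vehicle (-0.79 on the log2 scale), and Srebf1 had 119 and 109 CPM with TG, against 218 and 229 CPM with vehicle (-0.97). Scap, which fell in melanoma, had 159.9 and 170.0 CPM with TG and 154 and 161 CPM with vehicle, and those libraries overlapped (log2 change 0.07, SE 0.043, edgeR with Benjamini-Hochberg adjusted p = 0.149). Stard4 fell (-0.80) and Insig2 rose (0.46). On the LXR side, Abca1 had 38.1 and 35.03 CPM with TG, against 6.19 and 8.50 CPM with vehicle (log2 change 2.33, SE 0.12, edgeR with Benjamini-Hochberg adjusted p = 8.38e-25). Abcg1 went the other way, with 14.3 and 14.8 CPM with TG against 37.7 and 38.7 CPM with vehicle (log2 change -1.39, SE 0.099, edgeR with Benjamini-Hochberg adjusted p = 1.04e-18). Nr1h2 (0.33) and Nr1h3 (1.81, at 3.54 and 3.44 CPM with TG against 0.965 and 1.02 CPM with vehicle) rose, and Mylip (0.17) did not pass. Summed macrophage markers, from cells in which LXR is best known, were 4.87 and 4.9 CPM with TG and 16.7 and 17 CPM with vehicle, with 1 of the 5 markers at 0 in each group, and their part in the fall of Abcg1 was not tested.

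In activated control T cells TG lowered much the same set. There 31 of 37 members were lower and 5 higher, against 32.4% and 32.6% of genes, and all 18 sterol enzymes and all 8 fatty acid genes were again lower. Of the 37, 30 were called lower and 4 higher in both T cell states, against 20.7% of all genes for each of these patterns. Hmgcs1 had 173 and 172 CPM with TG, against 677 and 705 CPM with vehicle (log2 change -2.00, SE 0.038, edgeR with Benjamini-Hochberg adjusted p = 6.27e-45). Scd1 had 24.04 and 25.3 CPM with TG, against 263 and 279 CPM with vehicle (log2 change -3.45, SE 0.054, edgeR with Benjamini-Hochberg adjusted p = 9.53e-49). Abca1 had 45.1 and 44.1 CPM with TG, against 3.79 and 3.18 CPM with vehicle (log2 change 3.66, SE 0.12, edgeR with Benjamini-Hochberg adjusted p = 1.64e-32), a 12.6-fold rise and the largest of any member with TG in the 4 settings. In each of these genes the groups were far apart beside the gap between their own libraries. Sqle was the enzyme that fell least after Ebp, with 168 and 169.8 CPM with TG against 263 and 273 CPM with vehicle (-0.67 on the log2 scale). Scap fell by a small step (-0.14), a call lost without the first activated vehicle or the second activated TG library. The small rises of Insig2 (0.27) and Mylip (0.97, at 2.47 and 1.61 CPM with TG against 0.933 and 1.14 CPM with vehicle) were lost without the first activated vehicle library, which left 3 members higher. Activation markers summed to 10100 and 10200 CPM with TG against 27600 and 28100 CPM with vehicle, and their part was not tested.

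The TG effect differed between activated and resting T cells in size for many members. The difference, activated minus resting, was positive for 14 and negative for 9 of 37, against 26.7% and 25.2% of genes. The share negative lies near the background and the share positive is above it, though DESeq2 called 11 positive. Hmgcs1 fell further in activated cells (difference -0.57, SE 0.053), as did Pmvk (-0.37), Hsd17b7 (-0.36), Nsdhl (-0.32) and Mvd (-0.30), though the difference of Nsdhl was lost without the second activated TG library (-0.28, edgeR with Benjamini-Hochberg adjusted p = 0.0635). Fads2 (0.89), Idi1 (0.84) and Fads1 (0.81) fell less in activated cells, and the difference of Idi1 was lost without the first resting TG library (0.39, edgeR with Benjamini-Hochberg adjusted p = 0.21). Abca1 rose further in activated cells (1.33, SE 0.2), and Abcg1, which fell in resting cells, had 3.58 and 4.90 CPM with TG and 3.67 and 4.16 CPM with vehicle in activated cells (difference 1.53, SE 0.23).

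Setting melanoma beside T cells, 14 of 36 members were called higher with TG in control melanoma and lower in both resting and activated control T cells, a pattern of 2.47% of the 11195 genes tested in all 3. They were Hmgcs1, Pmvk, Mvd and Fdps of the mevalonate stage, Fdft1, Sqle, Lss, Cyp51, Msmo1, Ebp and Sc5d of the squalene stage, the brake Insig1, the carrier Stard4 and the desaturase Scd1. The same 14 were called higher with TG in Ccdc101 KO melanoma. In control melanoma the rises of Ebp and Scd1 were small, and both calls were lost without the filter on low counts. That of Ebp was also lost in DESeq2. Another 4, Insig2, Nr1h2, Nr1h3 and Abca1, were higher in control melanoma and in both T cell states (14.7% of genes), and 13 were lower in all 3 (14.9% of genes), among them Acat2, Dhcr7, Elovl6, Fads2, Srebf1 and Srebf2. Because the list was drawn up with this contrast in view, these counts describe it and are no support for it.

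**Figure D4:**
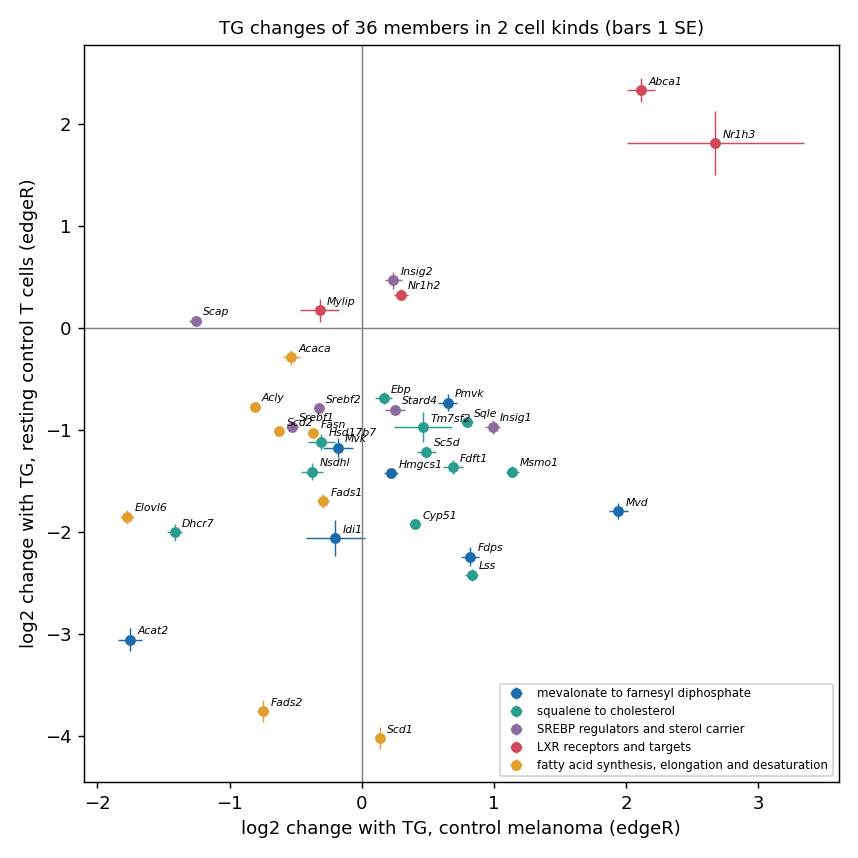
Log2 change with TG in resting control T cells (vertical) against control melanoma (horizontal) for the 36 members tested in both (edgeR; bars are 1 SE; colours give roles). Most sterol enzymes and Insig1 lie in the lower right, where TG is high in melanoma and low in T cells, Acat2, Dhcr7 and Elovl6 lie low in both, and Abca1 and Nr1h3 lie high in both.

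The difference of the TG effects, melanoma minus T cells, was tested in one fit of all 20 libraries. Against resting T cells it was positive for 27 of 37 members and negative for 4, beside 23.6% and 23.8% of the 14824 genes tested, and against activated T cells it was positive for 26 and negative for 3, beside 21.6% and 21.8%. The list was drawn up with this contrast in view, so these counts describe it and are no support for it. Both tests use the same 4 control melanoma libraries, so they are not independent. All 18 sterol enzymes had a positive difference in each, with a median of 1.66 against resting and 1.58 against activated cells, while the median over all genes was -0.0032 and 0.0048. Mvd had a difference of 3.72 (SE 0.1) against resting and 4.01 (SE 0.095) against activated cells. Scd1 had 4.14 (SE 0.11) and 3.56 (SE 0.066), Lss had 3.23 and 2.61, and Fdps had 3.05 and 2.44. Acat2 and Dhcr7, which fell in both cell kinds, fell less in melanoma (1.29 and 0.57 against resting cells, 1.17 and 0.45 against activated cells). Without the second control melanoma TG library the difference of Dhcr7 against activated cells was 0.26 and no longer passed (edgeR with Benjamini-Hochberg adjusted p = 0.0614), so that not all 18 enzymes did. Elovl6, which fell in both cell kinds, had a difference that did not pass (0.059, SE 0.09, edgeR with Benjamini-Hochberg adjusted p = 0.663 against resting, and 0.21, SE 0.093, adjusted p = 0.0563 against activated cells). Scap had the clearest negative difference, -1.35 (SE 0.067) against resting and -1.14 (SE 0.067) against activated cells. DESeq2 called 1 negative difference against resting cells in place of 4, and leaving out either control melanoma TG library, either resting TG library or the second resting vehicle library left 2. Against activated cells, the negative difference of Mylip was lost without the first activated TG library (edgeR with Benjamini-Hochberg adjusted p = 0.0658).

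Before the drug, the cell kinds already differed. With vehicle, 11 of 37 members were higher and 24 lower in control melanoma than in resting control T cells, against 40.8% and 43% of genes, and 16 of the 18 sterol enzymes were among the lower ones while all 8 fatty acid genes were higher. Stard4 (-3.14 on the log2 scale) and Hmgcs1 (-2.72) were the furthest below T cells among members above 5 CPM in both, and Scd1 (1.98), Dhcr7 (1.18) and Fads2 (1.18) the furthest above. Abcg1 had 0 counts over the 2 control melanoma libraries and 888 over the 2 resting T cell libraries, so it was at least 429-fold lower in melanoma, taking 3 counts over the melanoma group as the floor. Per kilobase of exon, Scd2 had the highest level of the 37 in both, 504 CPM per kb in control melanoma and 334 CPM per kb in resting T cells. These levels were scaled within each cell kind, so they rank genes and do not compare the cell kinds. Acly (110.0 CPM per kb) and Fasn (98.6) came next in melanoma, and Hmgcs1 (107 CPM per kb), Acly (85.6) and Srebf2 (85.4) came next in resting T cells. Srebf2 stood above Srebf1 per kilobase in both, with 43.3 against 27.9 CPM per kb in melanoma and 85.4 against 39.7 CPM per kb in resting T cells.

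Anti-CD3 activation raised most of the synthesis genes. With vehicle, 23 of 37 members were higher and 8 lower in activated than in resting control T cells, against 35.3% and 39.1% of genes, and 16 of the 18 sterol enzymes and 6 of the 8 fatty acid genes were higher. Scd1 had 263 and 279 CPM in activated cells, against 57.1 and 55.4 CPM in resting cells (log2 change 2.27, SE 0.047, edgeR with Benjamini-Hochberg adjusted p = 1.93e-43). Hsd17b7 had 117 and 123 CPM in activated cells, against 51.6 and 49.5 CPM in resting cells (log2 change 1.24, SE 0.056, edgeR with Benjamini-Hochberg adjusted p = 2.61e-27), and Idi1 had 29.97 and 29.5 CPM in activated cells, against 11.98 and 14.04 CPM in resting cells (1.20 on the log2 scale). These were rises without overlap in every library. Fasn (1.10), Acaca (1.09), Acat2 (1.12) and Insig1 (0.92) rose, while Srebf2 (-0.059), Scap (-0.078), Insig2 (-0.028) and Stard4 (0.014) did not pass and Srebf1 fell (-0.25). The calls of Ebp (-0.12) and Elovl6 (-0.12) as lower were lost under RLE scaling, without the filter and in DESeq2.

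The LXR side fell with activation. Abcg1 had 3.67 and 4.16 CPM in activated cells, against 37.7 and 38.7 CPM in resting cells (log2 change -3.29, SE 0.12, edgeR with Benjamini-Hochberg adjusted p = 4.51e-31). Mylip had 0.933 and 1.14 CPM in activated cells, against 16.3 and 16.4 CPM in resting cells (log2 change -3.99, SE 0.20, edgeR with Benjamini-Hochberg adjusted p = 1.12e-25). Abca1 had 3.79 and 3.18 CPM in activated cells, against 6.19 and 8.50 CPM in resting cells (log2 change -1.04, SE 0.19, edgeR with Benjamini-Hochberg adjusted p = 1.79e-06). All 3 were lower in both activated libraries, as was Nr1h2 (-0.41), whereas Nr1h3 did not pass (-0.90). Macrophage markers summed to 2.81 and 2.92 CPM in activated cells, against 16.7 and 17 CPM in resting cells, and their part was not tested.

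**Figure D5:**
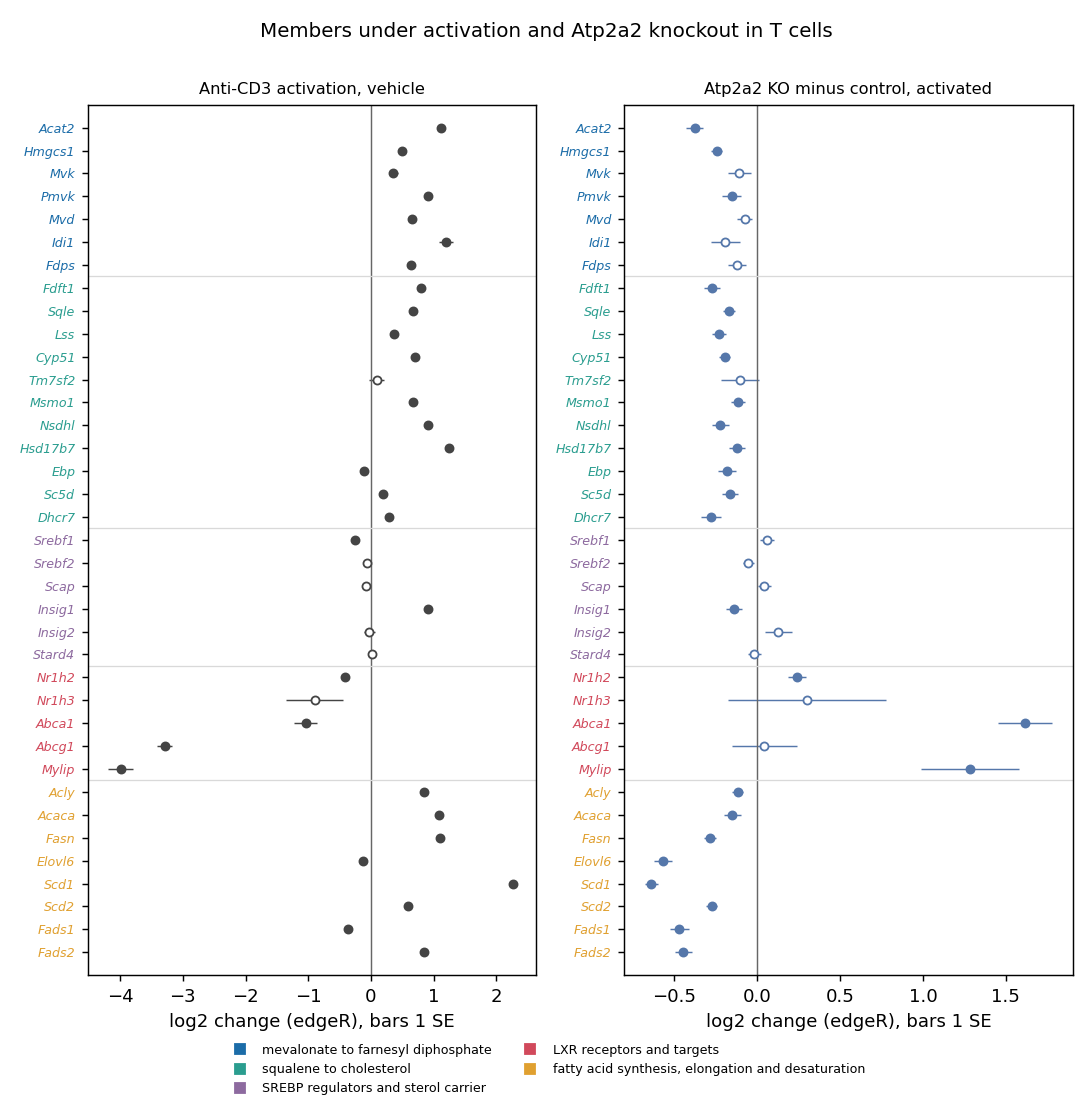
Log2 change of the 37 members in vehicle-treated T cells (edgeR; bars are 1 SE, filled symbols passed an adjusted p of 0.05), for activated minus resting control cells on the left and for Atp2a2 KO minus control activated cells on the right; the panels have different horizontal scales. Sterol and fatty acid genes lie mostly right of 0 with activation and left of 0 with the knockout, and Abca1 and Mylip do the reverse.

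Knockout of Atp2a2, the gene of the pump that TG blocks, lowered most of the synthesis genes in activated T cells, each by under 1 on the log2 scale. In activated cells with vehicle, 3 of 37 members were higher and 22 lower in Atp2a2 KO than in control, against 17.5% and 19.6% of genes. The lower ones held 13 of the 18 sterol enzymes and all 8 fatty acid genes. Melanoma markers summed to between 0.406 and 0.69 CPM in KO cells, with 4 of the 5 markers at 0, and to between 3.78 and 6.43 CPM in control cells, with none at 0, and their part was not tested. Scd1 had 171 and 176 CPM in KO cells, against 263 and 279 CPM in control cells (log2 change -0.64, SE 0.039, edgeR with Benjamini-Hochberg adjusted p = 2.83e-20). Elovl6 had 59.9 and 59.3 CPM in KO cells, against 91.2 and 85.02 CPM in control cells (log2 change -0.57, SE 0.054, edgeR with Benjamini-Hochberg adjusted p = 5.02e-13). Acat2 had 62.7 and 65.4 CPM in KO cells, against 81.6 and 84.8 CPM in control cells (log2 change -0.38, SE 0.053, edgeR with Benjamini-Hochberg adjusted p = 3.95e-08). None of these groups overlapped, and the median over the sterol enzymes was -0.18. Fads1 (-0.47), Fads2 (-0.45), Fasn (-0.29) and Hmgcs1 (-0.25) also fell, and Mvd (-0.076) and Fdps (-0.12) did not pass. DESeq2 called 15 members lower, losing the small falls of Acaca, Ebp, Hsd17b7, Insig1, Msmo1, Pmvk and Sc5d, and leaving out 1 library at a time gave between 15 and 24 lower members.

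Abca1 had 12.03 and 9.19 CPM in activated Atp2a2 KO cells, against 3.79 and 3.18 CPM in activated control cells (log2 change 1.62, SE 0.16, edgeR with Benjamini-Hochberg adjusted p = 3.98e-12). Mylip had 2.92 and 1.91 CPM in KO cells, against 0.933 and 1.14 CPM in control cells (log2 change 1.28, SE 0.30, edgeR with Benjamini-Hochberg adjusted p = 3.84e-04), a call lost without the first KO library. Nr1h2 rose as well (0.24), so 3 of the 5 LXR genes were higher. Srebf1 (0.06), Srebf2 (-0.053), Scap (0.044) and Stard4 (-0.018) did not pass. The comparison shares its control libraries with the TG comparison in activated cells, so only the values are set side by side: Scd1 changed by -0.64 with the knockout and -3.45 with TG, Elovl6 by -0.57 and -2.01, Hmgcs1 by -0.25 and -2.00, and Abca1 by 1.62 and 3.66. Tested directly, TG-treated control cells were lower than vehicle-treated KO cells in 31 of 37 members and higher in 3, against 30% and 30.5% of genes, with all 18 sterol enzymes and all 8 fatty acid genes among the lower ones. The KO libraries labelled resting, set against resting control cells, had 21 members higher and 8 lower, against 33.7% and 35.9% of genes, and Scd1 was the highest of them (1.62 on the log2 scale). Since those libraries carried activation markers, the knockout and activation cannot be told apart there.

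Genes around the 37 gave a mixed picture. With TG, 35.7% of all genes were called higher and 36.1% lower in control melanoma, 34.1% and 35.2% in resting T cells, and 32.6% and 32.4% in activated T cells. Of 12 genes that process SREBP or hold it in the reticulum, 6 were higher and 6 lower with TG in control melanoma, 8 higher and 3 lower in resting T cells, and 8 higher and 2 lower in activated T cells. Paqr3, a Golgi anchor of SCAP, was among the higher in all 3 (2.47, 1.00 and 2.87 on the log2 scale). Tmem97, an SREBP target, fell in each (-0.45, -1.25 and -1.45). Rnf145, a ligase that acts on SCAP, fell in melanoma (-1.44) and in resting T cells (-0.38) and rose in activated T cells (0.46).

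Of 24 genes of fatty acid supply, elongation and glycerolipid assembly, 6 were higher and 13 lower with TG in control melanoma, 7 higher and 12 lower in resting T cells, and 10 higher and 9 lower in activated T cells. The lower ones in melanoma and resting T cells are above the 36.1% and 35.2% of all genes. The counts in activated T cells lie nearer the 32.6% higher and 32.4% lower of all genes. Acss2, which makes acetyl-CoA from acetate, had 5.79 and 5.94 CPM in resting T cells with TG, against 20.3 and 23.5 CPM with vehicle (-1.91 on the log2 scale), and in control melanoma it did not pass (-0.15). Acsl3, an acyl-CoA synthetase, fell in resting (-1.55) and activated T cells (-1.46) and did not pass in melanoma (-0.051). Me1, a malic enzyme that supplies NADPH, had 1.19 and 1.30 CPM in activated T cells with TG, against 13.4 and 13.9 CPM with vehicle (-3.44). Of 5 other LXR targets, 3 were tested in melanoma, with 1 higher and 1 lower, about as the shares of all genes give, and 4 in T cells, with 4 lower in resting and 3 lower in activated cells, and none of them higher in either T cell state. Pltp, a phospholipid transfer protein, rose in control melanoma (0.59) and fell in resting T cells (-2.58).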

How the data were processed

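Total RNA of 20 samples, 2 libraries in each of 10 groups, was sequenced, and the values used are the deposited gene counts, which the authors made with STAR 2.6.0c and HTSeq on GRCm38 (mm10), per the submitters' processing notes. The HTSeq version, strand setting and annotation are not given in the sources used here. Gene names came from GENCODE M21, which named 46005 of 46603 identifiers, and those without a name held 0.0759% of counts. Melanoma (8 libraries), T cells (12) and all 20 were fitted separately with edgeR 4.0.16 (TMM scaling, filterByExpr defaults, robust quasi-likelihood test, Benjamini-Hochberg adjustment over 12540, 13432 and 14824 genes, called below 0.05), without a term for the replicate number. The common coefficient of biological variation was 2.71%, 2.8% and 2.77%. Each SE was derived from the fitted log2 change and its F statistic. Levels of single genes are CPM, per kb of merged exons where genes are compared, with TMM scaling done separately in melanoma and T cells. Sums over marker genes are CPM without TMM scaling. DESeq2 1.42.0, RLE scaling, other filters, a replicate block, fits on the groups compared alone and leaving out each library were tried. The comparison of the 2 Atp2a2 KO groups was added after the data were examined. On simulated counts for control melanoma, 79.1% of genes changed by 1.5-fold, 97% by 2-fold and 100% by 4-fold were called, with 6 false calls. For resting T cells the shares were 83.6%, 92.5% and 98.5%, with 10 false calls. For the difference between melanoma and resting T cells they were 76.1%, 88.1% and 95.5%, with 11. Only a small share of genes was changed there and none at low counts, unlike the real comparisons. Replicate libraries differed beyond counting error. Any gene of the 37 could be named. Library values were given for 21 chosen genes and for the 5 largest called rises and falls above 5 CPM in a comparison. The genes and lists were chosen with earlier results of these data known.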

Additional observations from a re-analysis of the deposited data

Results flagged for a closer look

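These results were marked because an interaction test found that the TG effect differed between 2 groups, at a Benjamini-Hochberg adjusted p below 0.05 in edgeR. Differences are on the log2 scale, with the first named group's TG effect minus the second's.

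For Ccdc101 KO minus control melanoma, 16 members had a positive and 1 a negative difference, against 7.16% and 5.95% of all genes. The largest were Fdps at 0.71, Fads2 at 0.58, Scd2 at 0.52, Nsdhl at 0.51 and Scd1 at 0.45. The negative one was Abca1 at -0.64. DESeq2 gave no adjusted p for Nsdhl or Abca1.

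For activated minus resting control T cells, 14 members had a positive and 9 a negative difference, against 26.7% and 25.2% of all genes. Only the share negative is near its background. The largest positive ones were Abcg1 at 1.53, Abca1 at 1.33, Fads2 at 0.89, Idi1 at 0.84 and Fads1 at 0.81. The largest negative ones were Hmgcs1 at -0.57, Pmvk at -0.37, Hsd17b7 at -0.36, Nsdhl at -0.32 and Mvd at -0.30. The call of Idi1 was lost without the first resting TG library and that of Nsdhl without the second activated TG library.

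For control melanoma minus resting control T cells, 27 members had a positive and 4 a negative difference, against 23.6% and 23.8% of all genes. The largest positive ones were Scd1 at 4.14, Mvd at 3.72, Lss at 3.23, Fdps at 3.05 and Fads2 at 2.99. The negative ones were Scap at -1.35, Mylip at -0.51, Acaca at -0.26 and Insig2 at -0.25. The calls of Mylip, Acaca and Insig2 were lost in DESeq2 (adjusted p = 0.133, 0.0827 and 0.163). That of Insig2 was also lost with the stricter filter on low counts and with a replicate block. For control melanoma minus activated control T cells, which shares the melanoma libraries, 26 members had a positive and 3 a negative difference, against 21.6% and 21.8% of all genes. The largest positive ones were Mvd at 4.01, Scd1 at 3.56, Lss at 2.61, Fdps at 2.44 and Msmo1 at 2.28, and the negative ones were Abca1 at -1.57, Mylip at -1.32 and Scap at -1.14. The call of Mylip was lost without the first activated TG library. The list was drawn up with the contrast of melanoma and T cells in view, so these counts are no support for it.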

How the results depend on the processing

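No member's log2 change that passed the test changed sign under any setting tried, and most counts of called members stayed within 1.5 times of those reported. DESeq2 called 1 member higher in Ccdc101 KO than in control melanoma with vehicle in place of 3, and leaving out 1 library gave 1 to 3. For the genotype interaction DESeq2 called 10 positive differences in place of 16, gave no adjusted p for Nsdhl or for Abca1, the negative one, and leaving out 1 library gave 0 to 1 negative. In activated T cells with TG, leaving out 1 library gave 3 to 5 members higher. For melanoma minus resting T cells DESeq2 called 1 negative difference in place of 4, and leaving out 1 library gave 2 to 4. The cause was not tested. Among values of single members, 35 calls were lost in DESeq2, 380 were kept and 2 had no adjusted p. RLE scaling lost 4, a filter of 5 CPM in 2 libraries lost 5, no filter lost 11 and using only the groups compared lost 5. Libraries with the same replicate number did not deviate together (r between -0.0749 and 0.0332 over 6 pairs of groups in melanoma, and between -0.109 and 0.109 over 15 in T cells). A fit with a replicate block lost 3 calls and kept 414, leaving for example 17 positive genotype differences and 31 members lower with TG in resting T cells. Genes below about 5 CPM, such as Nr1h3, Mylip in activated T cells and Abcg1 in melanoma, are limited by depth.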

Other observations

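Sterol transport and storage genes gave mixed directions with TG. Of 17 such genes, 15 were tested, and with TG 9 were higher and 5 lower in control melanoma, 7 higher and 6 lower in resting T cells, and 8 higher and 4 lower in activated T cells. Over all genes 35.7% were higher and 36.1% lower in control melanoma, 34.1% and 35.2% in resting T cells, and 32.6% and 32.4% in activated T cells, so the counts of lower genes are near those shares. Osbp, an oxysterol-binding lipid transfer protein, was higher in each (1.76, 0.79 and 1.01 on the log2 scale), as was Gramd1b, a carrier of sterol into the reticulum (1.92, 1.28 and 0.96). Scarb1, a lipoprotein receptor, was lower in each (-1.28, -1.28 and -1.61). Lrp8, another receptor of that kind, was higher in melanoma (0.59) and lower in both T cell states (-1.35 and -1.67). Vldlr was near 0 in control melanoma with vehicle, with 1.90 and 2.23 CPM with TG against 0 and 0.122 CPM with vehicle, and it was higher with TG in resting (1.58) and activated T cells (2.18).

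Of 11 genes of the isoprenoid branch, which leaves the sterol route at farnesyl diphosphate, 4 were higher and 2 lower with TG in control melanoma, 6 higher and 3 lower in resting T cells, and 5 higher and 4 lower in activated T cells. The 4 higher in melanoma and the 4 lower in activated T cells are near the same shares of all genes. Dhdds, a subunit of the enzyme that makes dolichol, was higher in all 3 (1.18, 0.31 and 0.52). Pdss1, which makes the tail of coenzyme Q, was lower in all 3 (-0.58, -0.96 and -0.94).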
